A study of Rattus norvegicus with 19 samples.

Results

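The genes of the TGF-beta, BMP and activin pathway examined here are those whose symbols start with Bmp, Tgfb, Smad, Acvr, Inhb or Gdf, without Gdf15. The array carried 54 probes for 46 of these genes, out of 30367 probes and 15168 gene symbols in all. The samples were 13 mammary carcinomas and 6 normal glands from female F1 rats of a cross of the Sprague-Dawley and Copenhagen strains. The carcinomas are labelled as induced by radiation, and the study's protocol gives whole-body gamma rays at a dose of 4 Gy at 7 weeks of age to the rats that were treated. It also names rats that were left untreated, and the labels do not say whether the normal glands came from irradiated rats. Age at dissection was not given in the sources used here. Each sample was total RNA labelled with Cy3 and read on 1 array, and nothing in the labels ties samples to separate animals beyond their sample numbers, so the tests measure the spread between these samples.

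TGF-beta, BMP and activin ligands are secreted dimers that bring together type I and type II serine/threonine kinase receptors. TGF-beta and activin receptors mainly phosphorylate SMAD2 and SMAD3, BMP receptors mainly phosphorylate SMAD1, SMAD5 and SMAD9, and both sets join SMAD4 to act on transcription, while SMAD6 and SMAD7 restrain the pathway. In the mammary gland, TGF-beta is known for restraining duct growth and milk protein expression, and BMP signals are known from bud formation and from the exchange between epithelium and stroma.

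Levels are given as log2 intensity relative to each array's own 75th percentile, so 0 is the level of a probe at that percentile and 1 unit is a 2-fold difference. Levels of different genes come from different probes and are not compared with each other. A gene passed the test when its Benjamini-Hochberg adjusted p from limma, taken over all 12789 genes tested, was below 0.05. Of the 46 genes, 40 had a probe well above background on at least 6 arrays and were tested. The remaining 6 were Bmp5, Bmp6, Bmp10, Gdf2, Inhbe and Smad3. Smad3, a main carrier of the TGF-beta and activin signal, was well above background in none of the normal glands and in 2 carcinomas, so no level is given for it.

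Calls fell on every class of the pathway except the TGF-beta ligands. Of the 40 tested genes, 7 were higher and 7 were lower in carcinomas, 35.0% in all, beside 23.0% of all genes tested (9.73% higher and 13.2% lower). Without normal gland 2, 3 or 4, the count of higher genes was 4. Over all genes tested, the count of higher genes then fell from 1244 to 698, 664 and 1045. Of the 25 members above background on all 19 arrays, 5 were higher and 4 lower when the test was limited to such genes, beside 27.6% of 8548 genes. Receptors held 7 of these 14 calls, with Acvr1c, Acvrl1 and Tgfbr2 lower and Bmpr2, Acvr2a, Acvr1b and Bmpr1a higher among 12 tested. Acvr2a and Acvr1b, well above background on 1 and 2 of the 6 normal arrays, were kept by the filter through the carcinomas. Both turned lower with another background correction (normexp). Among ligands, Inhba was higher and Bmp4 and Gdf7 were lower, out of 17 tested. Of 6 SMAD genes, Smad2 and Smad7 were higher, and of 5 other proteins with a family prefix, Bmper and Tgfbi were lower. The median change over the 40 genes was 0.01, the same as over all genes tested, while the median size of the change was 0.70 against 0.44. Of the 14 genes, 8 differed by at least 2-fold. No gene had all carcinomas above all normal glands (0.540% of all genes did), and Acvr1c and Tgfbr2 had all carcinomas below all normal glands (1.93% of all genes did).

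**Figure D1:**
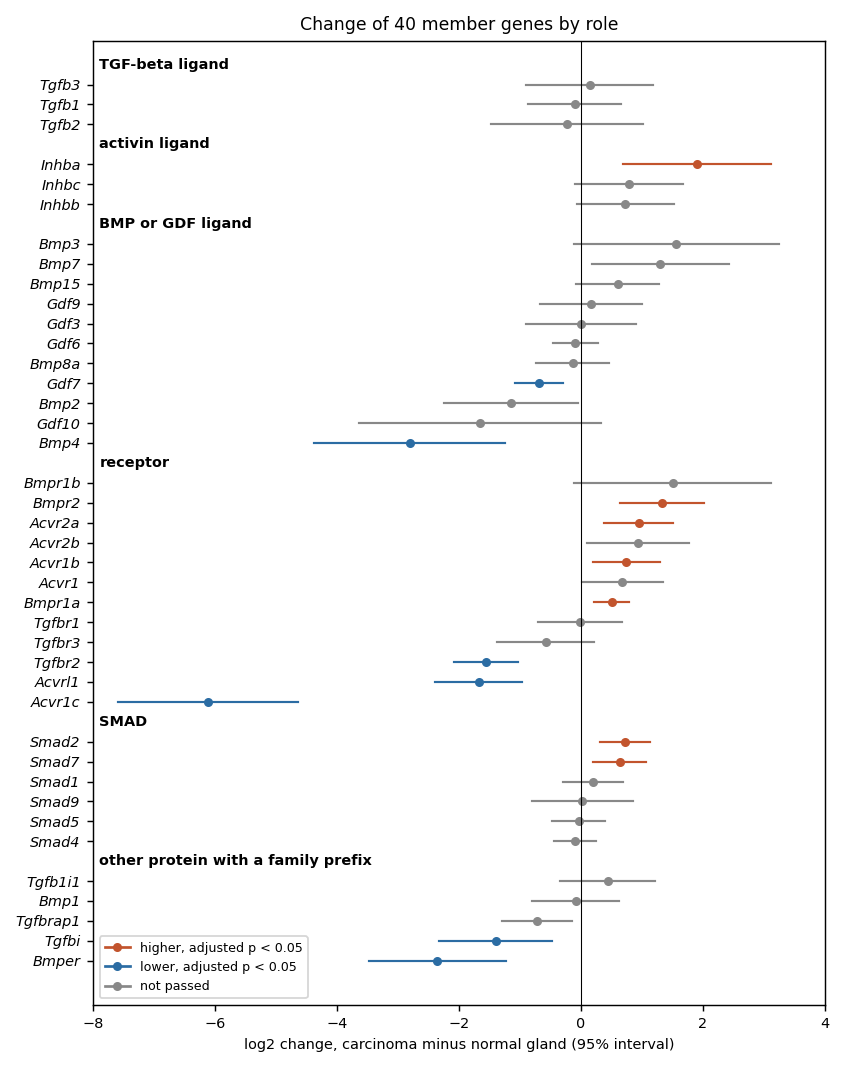
Change of the 40 tested genes, carcinoma minus normal gland on the log2 scale, with points for the limma estimate, lines for its 95% interval, and genes grouped by role. Acvr1c lies farthest left at -6.12, the 7 higher genes lie between 0.51 and 1.91, and the SMAD genes lie between -0.10 and 0.72.

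Several properties of the arrays moved with the groups. Carcinoma arrays were brighter, with a 75th percentile of 485 to 1428 intensity units against 295.5 to 673 for normal glands, and between 30 and 40 of the tested genes were well above background on a carcinoma array against 29 to 38 on a normal one. With the array's brightness as a covariate in limma, Acvr1c alone passed among the 40 genes, and 1.45% of all genes passed. An unadjusted limma p below 0.05 was held by 7 of the 40 in that fit, beside 1843 of all 12789 genes. The arrays lay on 3 slides, with 3, 2 and 1 normal glands and 4, 4 and 5 carcinomas. Of the 14 called genes, 12 kept their sign within every slide. The exceptions were Smad2 and Tgfbi within the slide that held 1 normal gland. The 14 were called on these same arrays and no matching count was made over all called genes, so the signs are no separate check. Fewer calls were made within slides, 1 higher and 2 lower of the 40 within slide 1, none higher and 2 lower within slide 2, and none within slide 3, beside 5.37%, 2.44% and 0.243% of all genes. At an unadjusted limma p below 0.05 the counts within slides 1 and 2 were 18 and 12 of the 40, beside 3543 and 3112 of all 12789 genes.

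Levels of cell type markers also moved with the groups. All 7 adipocyte markers measured were lower in carcinomas, and their summed level relative to the 75th percentile, which lay between 256 and 657 in normal glands, lay between 0.708 and 9.44 in carcinomas. Adipoq, the fat cell hormone adiponectin, was well above background on all normal arrays and on 8 carcinoma arrays. Pck1 was on all normal and 6 carcinoma arrays, and Lep on only 4 normal and 4 carcinoma arrays. Of 8 endothelial markers, 7 were lower, with summed levels of 6.98 to 22.8 in normal glands and 1.87 to 5.25 in carcinomas, and Pecam1 and Cdh5 stayed well above background on all arrays. Macrophage markers were lower for 5 of 8, T cell markers for 4 of 8 and fibroblast markers for 2 of 7. Of the epithelial markers, 2 of 8 luminal and 1 of 8 basal ones were higher, and all 8 luminal markers were above background on every array. Over all genes tested, 13.2% were lower and 9.73% higher, so the basal share of 12.5% was near that of all genes. Skeletal muscle markers passed in neither direction, but normal gland 3 stood apart on them, with a summed level of 398.9 against 0.584 to 8.83 in the other normal glands. Without that gland, Acvr1b, Acvr2a, Smad7 and Tgfbi did not pass, and 13.7% of all genes did. Acvr1b, Smad7 and Tgfbi also did not pass without normal gland 2 or 4, whose summed muscle levels were 8.83 and 1.73. In those fits 14.2% and 20.1% of all genes passed. The part of muscle in these results was not tested. In bulk tissue, fewer cells of a type and less RNA per cell cannot be told apart.

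Among the TGF-beta and activin type I receptors, Acvr1c, also called ALK7 and known as a receptor of fat tissue, fell furthest. Its level was 0.10 at the lowest, 0.87 at the median and 2.06 at the highest in normal glands, and -7.73, -5.13 and -2.41 in carcinomas. Every carcinoma lay below every normal gland, with carcinomas 6 and 3 the least low, and it was well above background on only 9 of the 13 carcinoma arrays. The change was -6.12 ± 0.71 (SE, limma adjusted p = 5.52e-06) and -4.09 with normexp background correction in place of the scanner software's subtraction. These sizes rest partly on the 4 carcinoma arrays where the probe was not well above background. A second Acvr1c probe gave -4.02 ± 0.57 (limma adjusted p = 6.68e-05). That probe was well above background on only 4 of the 13 carcinoma arrays, so its size is poorly set too. Within slides the first probe differed by -5.81, -6.22 and -6.54. Carcinomas 6 and 3 also had the highest adipocyte marker sums of their group, at 9.44 and 6.47. By mean log2 level of these 7 markers they did not stand out, at -4.19 and -4.31. The carcinomas ranged from -5.59 to -3.44 on that measure. The part of fat cells in the Acvr1c result was not tested.

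The 250 bases before the annotated start of 4 called genes are shown because these genes include the largest changes in either direction and a matrix gene known to respond to TGF-beta. They were taken from RefSeq's promoter table, in which 13 of the 14 called genes were found. Capitals mark CAGAC or its reverse complement GTCTG, the core of the SMAD-binding element, GGCGCC, a GC-rich word that SMADs can also bind, and CACGTG, a palindromic E-box. The words were searched on both strands and do not overlap one another in these windows. The sequences lie at chr3:63301155-63301404 (GRCr8, minus strand) for Acvr1c, chr15:22101934-22102183 (GRCr8, minus strand) for Bmp4, chr17:7990114-7990363 (GRCr8, minus strand) for Tgfbi and chr17:53804509-53804758 (GRCr8, minus strand) for Inhba.
Acvr1c: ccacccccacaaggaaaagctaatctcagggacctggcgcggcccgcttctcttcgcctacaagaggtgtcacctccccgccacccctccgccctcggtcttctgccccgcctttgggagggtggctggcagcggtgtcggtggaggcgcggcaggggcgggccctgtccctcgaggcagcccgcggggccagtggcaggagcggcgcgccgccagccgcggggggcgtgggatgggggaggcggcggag
Bmp4: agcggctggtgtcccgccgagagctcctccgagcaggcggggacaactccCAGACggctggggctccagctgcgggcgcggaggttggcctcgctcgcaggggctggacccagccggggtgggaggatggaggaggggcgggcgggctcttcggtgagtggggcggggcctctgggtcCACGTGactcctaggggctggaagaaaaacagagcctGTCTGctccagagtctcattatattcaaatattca
Tgfbi: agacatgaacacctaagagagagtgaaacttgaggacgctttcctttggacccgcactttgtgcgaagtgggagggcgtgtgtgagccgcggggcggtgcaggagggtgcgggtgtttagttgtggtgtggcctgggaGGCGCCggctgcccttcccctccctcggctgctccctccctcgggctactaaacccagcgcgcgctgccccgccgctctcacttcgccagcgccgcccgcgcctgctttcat
Inhba: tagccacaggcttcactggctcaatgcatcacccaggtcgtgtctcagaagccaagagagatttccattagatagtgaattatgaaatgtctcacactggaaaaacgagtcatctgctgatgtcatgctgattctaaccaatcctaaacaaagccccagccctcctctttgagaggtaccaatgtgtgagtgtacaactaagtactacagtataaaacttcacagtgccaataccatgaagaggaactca
Bmp4 holds CAGAC or its complement 2 times and CACGTG once, Tgfbi holds GGCGCC once, and the windows of Acvr1c and Inhba hold none of the words. The windows also differ in composition, with 74.4% G and C in Acvr1c, 66.4% in Bmp4, 65.6% in Tgfbi and 43.6% in Inhba. Among the 13 called genes found, CAGAC was present in 1 (Bmp4), GGCGCC in 5 (Acvr1b, Bmper, Smad2, Smad7 and Tgfbi) and CACGTG in 2 (Acvr1b and Bmp4). In the same 250-base window of 33469 RefSeq genes, the shares were 42.9%, 8.69% and 5.59%. A match describes letters only and not a bound site.

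Tgfbr2, the type II receptor on which TGF-beta signalling depends, was lower in every carcinoma than in any normal gland. It ranged from -1.32 to 0.06 in normal glands with a median of -0.86, and from -3.41 to -1.34 in carcinomas with a median of -2.25. Carcinoma 12, at -1.34, came closest to the lowest normal gland. The change was -1.56 ± 0.25 (SE, limma adjusted p = 0.000304), and the second Tgfbr2 probe gave -1.81 ± 0.34 (limma adjusted p = 0.00101). Within slides Tgfbr2 differed by -1.67, -1.43 and -1.98. Its type I partner Tgfbr1 had medians of -0.37 and -0.94, its groups overlapped throughout, and its change of -0.02 ± 0.33 did not pass (limma adjusted p = 0.978). Tgfbr3, the co-receptor betaglycan that presents TGF-beta2 to its receptors, did not pass either, at -0.58 ± 0.38 (limma adjusted p = 0.292), but did with normexp at -0.79 (limma adjusted p = 0.00313).

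Acvrl1, or ALK1, a type I receptor best known from blood vessel endothelium, ranged from -0.71 to 0.71 in normal glands with a median of 0.29. In carcinomas it ranged from -2.68 to -0.41 with a median of -1.47. Only the highest carcinomas, 2 and 8, reached into the normal range. Acvrl1 fell by 1.68 on the log2 scale (SE 0.34, limma adjusted p = 0.00199). Eng, the endothelial co-receptor endoglin that works with it, fell by 1.35 (SE 0.35, limma adjusted p = 0.0101), beside the 7 endothelial markers that were lower. The part of endothelial cells in these results was not tested. Over the 13 carcinomas, Acvrl1 and Eng gave r = 0.15 (permutation p = 0.628) and rho = 0.14 (permutation p = 0.654), and r = 0.21 without the 2 carcinomas farthest from the Acvrl1 median.

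Among the receptors called higher, Bmpr2 and Bmpr1a stayed higher with normexp and were well above background on all arrays. Bmpr2, the type II receptor for BMPs, ranged from -3.76 to -1.41 in normal glands with a median of -2.36, and from -2.32 to -0.35 in carcinomas with a median of -1.22. The highest normal gland, number 5, lay within the carcinoma range, as did 2 others near its lower end. Bmpr2 rose by 1.33 ± 0.33 (SE, limma adjusted p = 0.00735), and the rise was 0.61 with normexp. Bmpr1a, a type I BMP receptor, rose by 0.51 ± 0.14 (SE, limma adjusted p = 0.0129). Its levels were tightly held, from -0.67 to -0.16 in normal glands and from -0.28 to 0.67 in carcinomas, and only carcinoma 12 lay within the normal range.

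Acvr2a and Acvr1b, a type II and a type I activin receptor, were dim. Acvr2a ranged from -6.65 to -5.39 in normal glands, where it was well above background on 1 of 6 arrays, and from -5.78 to -4.04 in carcinomas, where it was on 11 of 13. The change was 0.94 ± 0.27 (SE, limma adjusted p = 0.0161), and without normal gland 3 it did not pass (limma adjusted p = 0.0601). Acvr1b, above background on 2 normal and 12 carcinoma arrays, changed by 0.74 ± 0.26 (SE, limma adjusted p = 0.0474), and leaving out any 1 of 15 arrays ended that call (limma adjusted p of at most 0.159). The Acvr1b call also ended with slide as a block (limma adjusted p = 0.0568). Both differences turned round with normexp background correction, to -0.60 for Acvr2a (limma adjusted p = 0.00751) and -0.49 for Acvr1b (limma adjusted p = 0.00887). That correction moved the median change of all 12789 genes from 0.01 to -0.37 and called 48.4% of them, with 5 higher and 20 lower among the 40 members. Relative to these medians, both values stay lower than the typical gene under normexp, so the direction of these 2 receptors depends on the background correction.

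The remaining receptors did not pass. Bmpr1b, a type I BMP receptor, had medians of -3.81 in normal glands and -1.47 in carcinomas, and its change was 1.51 ± 0.78 (limma adjusted p = 0.170). Carcinomas spread from -6.59 in carcinoma 7 to 0.40 in carcinoma 6, on both sides of the normal range of -4.55 to -2.67. Without carcinoma 7 the change was 1.88 and passed (limma adjusted p = 0.0318). The change was 0.68 ± 0.32 for Acvr1, also called ALK2 (limma adjusted p = 0.127), and the type II activin receptor Acvr2b did not pass either. Acvr1 passed without carcinoma 13 (limma adjusted p = 0.0487) and with slide as a block (0.86, limma adjusted p = 0.0245). It also passed with the sample code series as a block (0.75, limma adjusted p = 0.0185) and in number-coded samples alone (0.88, limma adjusted p = 0.0174). With normexp Acvr1 turned to -0.36, near the median change of -0.37 over all genes in that fit.

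**Figure D2:**
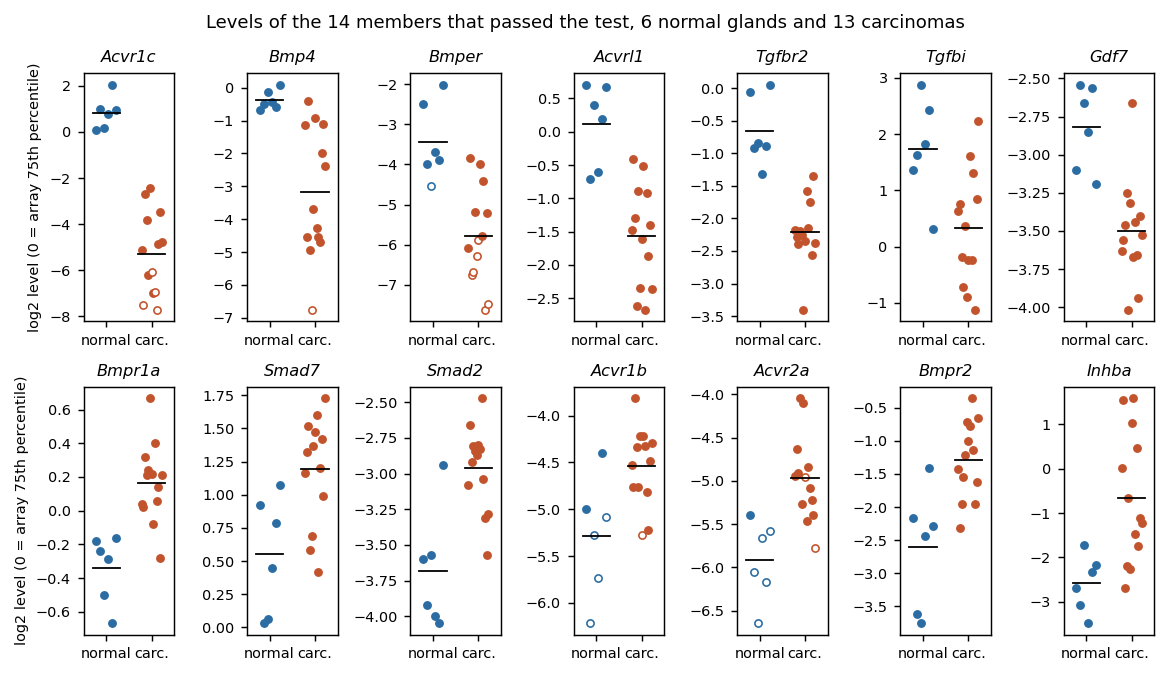
Levels of the 14 called genes, on the log2 scale relative to each array's 75th percentile, in 6 normal glands (left in each panel) and 13 carcinomas (right). Each point is 1 array, open where the probe was not well above background, lines are group means and each panel has its own axis. In Acvr1c and Tgfbr2 the groups do not overlap.

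Among ligands, the TGF-betas themselves did not pass. Tgfb1 ranged from -2.73 to -0.82 in normal glands and from -3.81 to -0.55 in carcinomas, with medians of -1.34 and -1.32. Tgfb2 had medians of -3.04 and -2.69, and Tgfb3 of 1.34 and 1.13. The changes were -0.10 ± 0.37 for Tgfb1 (limma adjusted p = 0.874), -0.23 ± 0.60 for Tgfb2 (limma adjusted p = 0.821) and 0.14 ± 0.50 for Tgfb3 (limma adjusted p = 0.870). The 95% intervals ran from -0.87 to 0.66, from -1.47 to 1.02 and from -0.89 to 1.18, so a 2-fold change of Tgfb2 or a 2-fold rise of Tgfb3 would not have been excluded by these arrays. Carcinomas varied among themselves in Tgfb2, from -5.89 in carcinoma 5 to -0.53 in carcinoma 4, with an SD of 1.51 against 0.59 in normal glands.

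Inhba, which encodes the beta A subunit of activin A, was the ligand that rose. Its lowest, median and highest levels were -3.49, -2.51 and -1.71 in normal glands and -2.68, -1.11 and 1.60 in carcinomas. Carcinomas 8, 2, 7 and 10 stood highest, at 1.60, 1.56, 1.04 and 0.47, while 4 carcinomas stayed within the normal range. Inhba rose by 1.91 ± 0.58 (SE, limma adjusted p = 0.0233), or 3.76-fold, and did not pass without normal gland 2 or normal gland 4 (limma adjusted p of at most 0.0617). The value was 1.24 with normexp and 3.3 with array brightness as a covariate, where it did not pass. Inhbb, the beta B subunit, did not pass at 0.73 ± 0.38 (limma adjusted p = 0.182), and its second probe gave 0.13 ± 0.36. Inhbc did not pass. Inha, the alpha subunit that joins a beta subunit to make inhibin, rose by 2.38 ± 0.66 (SE, limma adjusted p = 0.0140), by 1.14 with normexp and by 0.44 with brightness as a covariate.

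Bmp4, a BMP made by stromal cells among others, was far lower in most carcinomas and near the normal level in a few. The 6 normal glands lay close together, from -0.68 to 0.10 with a median of -0.45. The carcinomas ran from -6.77 to -0.39 with a median of -3.68, and carcinoma 5, the lowest, was not well above background. Carcinoma 3 lay inside the normal range at -0.39, and carcinomas 7, 12 and 1 lay just under it at -0.93, -1.09 and -1.13, while 7 carcinomas were at -3.68 or lower. The change was -2.81 ± 0.75 (SE, limma adjusted p = 0.0116), and the SD was 1.98 in carcinomas against 0.29 in normal glands. Within slides Bmp4 differed by -2.77, -3.02 and -2.98. Of the fibroblast markers, 2 of 7 were lower, with summed levels of 52.2 to 185 in normal glands and 7.34 to 257 in carcinomas, and their part in the Bmp4 result was not tested.

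Gdf7, a ligand of the BMP branch, fell by 0.69 on the log2 scale (SE 0.19, limma adjusted p = 0.0144). Normal glands ranged from -3.19 to -2.54 and carcinomas from -4.02 to -2.66, with only carcinoma 7 inside the normal range. With array brightness as a covariate the Gdf7 difference was -0.02. Bmp7, an epithelial BMP, was above the highest normal gland in 11 of 13 carcinomas by level, with medians of 0.19 and 1.85, yet did not pass, at 1.30 ± 0.54 (limma adjusted p = 0.0857). Carcinoma 7, at -2.38, lay far below all the others, and without it the change was 1.62 and passed (limma adjusted p = 0.00171), as it did with normexp at 1.31 (limma adjusted p = 0.0248). With array brightness as a covariate Bmp7 turned to -0.34 (limma adjusted p = 0.865). Bmp2 did not pass at -1.15 ± 0.53 (limma adjusted p = 0.125). Carcinoma 12 was the highest at -0.04, and without it Bmp2 passed (limma adjusted p = 0.0202), as it did with normexp at -0.94 (limma adjusted p = 0.0386) and in number-coded samples at -1.70 (limma adjusted p = 0.00239).

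The other BMP and GDF ligands tested were Bmp3, Bmp8a, Bmp15, Gdf3, Gdf6, Gdf9 and Gdf10, and none passed. Their changes lay between -1.65 for Gdf10 and 1.56 for Bmp3. Both varied widely between carcinomas, Gdf10 from -7.18 to 2.07 and Bmp3 from -4.53 to 2.96, and carcinoma 6 was the highest in each. Bmp15 and Gdf9, growth factors best known from the oocyte, were well above background on no normal array and on 8 and 6 carcinoma arrays. For neither did the bound on the fold against the normal background exceed 1, so no fold is given.

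The SMAD genes moved little. Smad2, which carries the TGF-beta and activin signal, ranged from -4.05 to -2.94 in normal glands and from -3.57 to -2.47 in carcinomas, with medians of -3.76 and -2.87. It rose by 0.72 ± 0.20 (SE, limma adjusted p = 0.0125), but was -0.11 with normexp (limma adjusted p = 0.549) and -0.27 within slide 3. The median change of all genes was -0.37 with normexp, so Smad2 lay above the typical gene in that fit. Smad7, the inhibitory SMAD that TGF-beta itself induces, ranged from 0.03 to 1.07 in normal glands and from 0.42 to 1.73 in carcinomas, with 9 carcinomas above every normal gland. Smad7 rose by 0.64 ± 0.21 (SE, limma adjusted p = 0.0326), and did not pass without normal gland 2, 3 or 4 (limma adjusted p of at most 0.106). With slide as a block it was 0.56 and did not pass (limma adjusted p = 0.0525), and with array brightness as a covariate it was 0.34. The changes of the SMADs of the BMP branch were 0.20 ± 0.24 for Smad1, -0.04 ± 0.21 for Smad5 and 0.02 ± 0.40 for Smad9, and that of the common Smad4 was -0.10 ± 0.16. None of these 4 passed (limma adjusted p of at least 0.592), and for Smad4 the 95% interval of -0.44 to 0.24 leaves out a 2-fold change in either direction. With normexp Smad4 was -0.43 and passed (limma adjusted p = 0.0131), and Smad9 was -0.75 and passed (limma adjusted p = 0.00459). The Smad4 value lay near the median change of all genes in that fit, -0.37.

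Of the other proteins with a family prefix, Bmper and Tgfbi fell. Bmper, a secreted protein that binds BMPs and modulates them in vessels, ranged from -4.54 to -2.01 in normal glands and from -7.63 to -3.84 in carcinomas, where it was well above background on 7 of 13 arrays. It fell by 2.36 on the log2 scale (SE 0.54, limma adjusted p = 0.00427), by 1.42 with normexp. Tgfbi, a matrix protein named for its induction by TGF-beta, ranged from 0.32 to 2.88 in normal glands and from -1.13 to 2.24 in carcinomas. It fell by 1.40 (SE 0.45, limma adjusted p = 0.0291), with carcinoma 13 the highest of its group and normal gland 6 the lowest of its own. The Tgfbi call ended without normal gland 2, 3, 4 or 5 (limma adjusted p of at most 0.0986), and the difference was 0.66 within slide 3, where normal gland 6 was the only normal sample. Tgfbi is also made by macrophages, and 5 of 8 macrophage markers were lower, with summed levels of 70.8 to 179.8 in normal glands and 17.1 to 96.7 in carcinomas. The part of macrophages in the Tgfbi result was not tested. The receptor-associated protein Tgfbrap1, the focal adhesion adaptor Tgfb1i1 and the procollagen protease Bmp1 did not pass, with changes between -0.72 and 0.44.

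**Figure D3:**
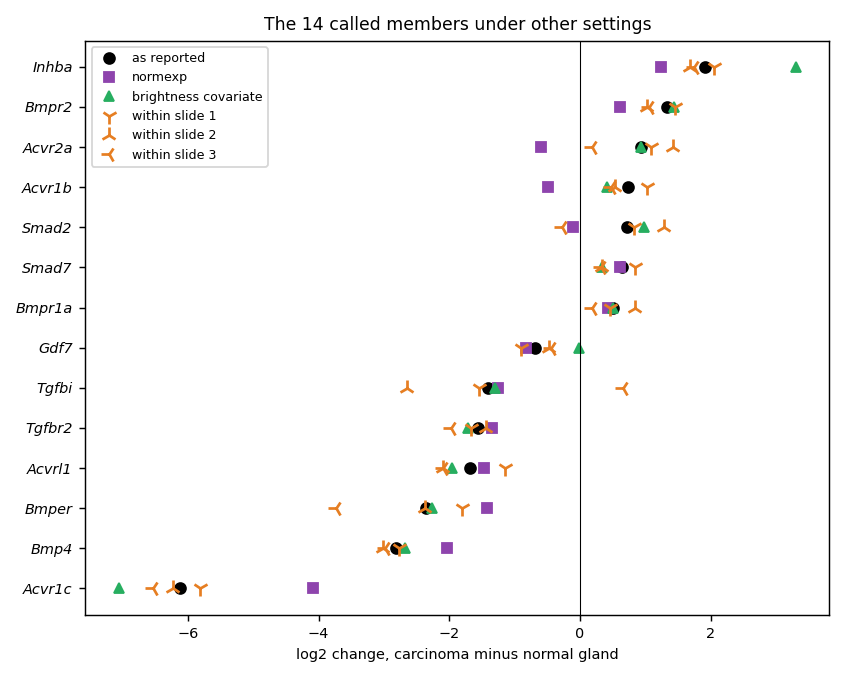
Change of the 14 called genes, carcinoma minus normal gland on the log2 scale, as reported (circle), with normexp background correction (square), with array brightness as a covariate (upward triangle) and within each slide (forked marks). Acvr2a, Acvr1b and Smad2 cross 0 with normexp, and Smad2 and Tgfbi cross it within slide 3.

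Carcinomas differed among themselves more than normal glands did. The SD was larger in carcinomas for 30 of the 40 genes (75%), beside 61.6% of all genes tested. The widest were Gdf10, Bmp3, Bmpr1b, Bmp4 and Acvr1c, with SDs of 2.44, 2.09, 2.00, 1.98 and 1.80 in carcinomas. Carcinoma 6 was the highest carcinoma for Gdf10, Bmp3, Bmpr1b, Bmp7, Acvr1, Bmpr1a, Acvr1c, Smad1 and Smad5 and the lowest for Tgfbr2. Carcinoma 7 was the lowest for Bmp7, Bmpr1b, Acvr1b and Smad5 and the highest for Gdf7, Tgfbr3 and Smad4, and its array was the dimmest of the carcinomas, with a 75th percentile of 485. The part of that array's brightness in its levels was not tested.

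**Figure D4:**
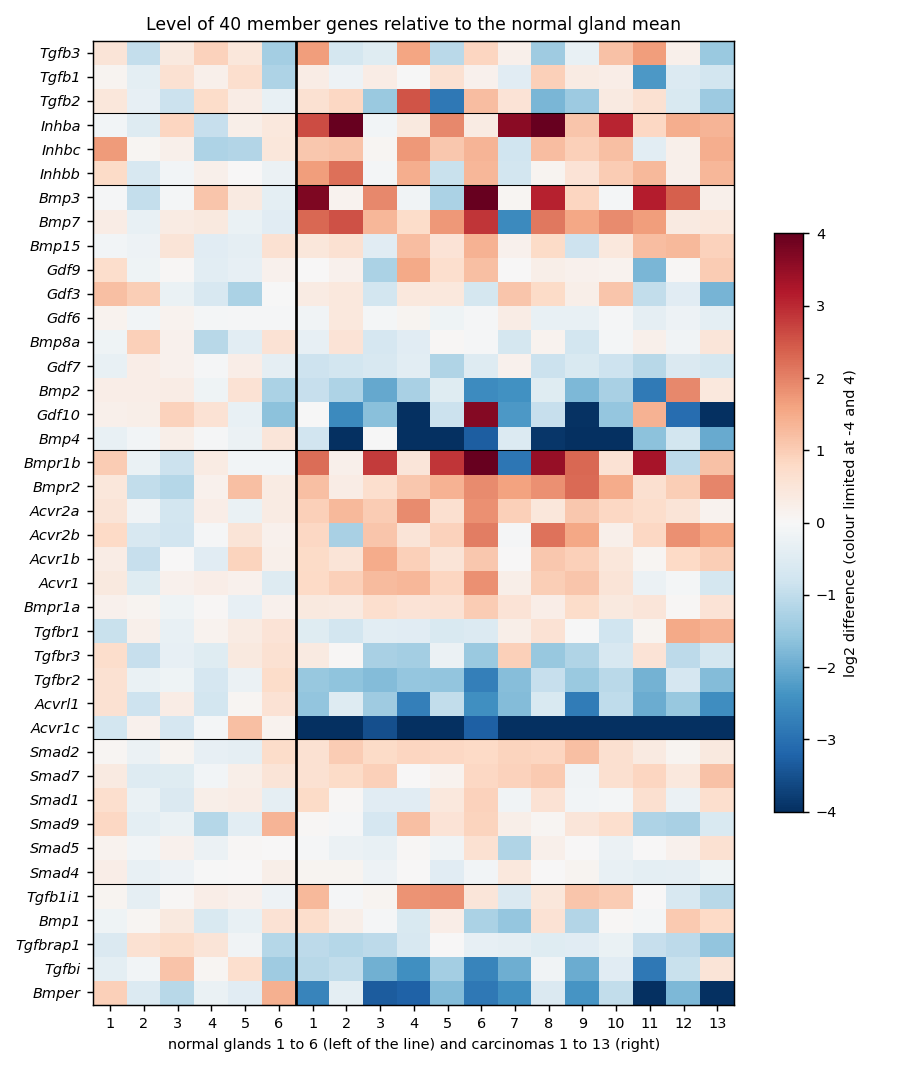
Level of the 40 tested genes in each of the 19 arrays, as the log2 difference from the normal gland mean, with colour limited at -4 and 4 and genes in the order of the plot of changes by role. Acvr1c is blue in all 13 carcinomas, while Bmp3, Gdf10 and Bmpr1b change colour from carcinoma to carcinoma. Bmp4 runs from near white to blue.

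Lists of other pathway genes, none sharing the family prefixes, showed calls in both directions. Of 98 tested, 11 were higher and 17 were lower in carcinomas (28.6% beside 23.0% of all genes tested), with a median change of -0.05 against 0.01. The count of higher genes was 6 without normal gland 2 or 3, 7 without normal gland 4 and 17 without carcinoma 7. Over all genes tested it was 698, 664, 1045 and 1440 in these fits, against 1244 with all arrays. Among 35 extracellular binding proteins, antagonists and co-receptors, 2 were higher and 7 lower. Inha was higher, and so was Fbn2, a fibrillin of the microfibrils that hold latent TGF-beta, at 1.48 ± 0.51 (SE, limma adjusted p = 0.0400), a call that ended on leaving out any 1 of 9 arrays and with slide as a block (limma adjusted p = 0.0523). Chrdl1, a BMP antagonist, was lower by the fit, at -4.92 ± 0.71 (limma adjusted p = 8.17e-05) and -2.21 with normexp. Also lower were Nbl1, another antagonist, at -1.95 ± 0.52 (limma adjusted p = 0.0110), and Nrros, which anchors latent TGF-beta on myeloid cells, at -1.79 ± 0.27 (limma adjusted p = 0.000133). Chrdl1 was well above background on 6 normal arrays and 2 carcinoma arrays, so the size of its fall is poorly set. Nrros lay between 0.06 and 1.15 in normal glands and between -2.76 and -0.20 in carcinomas, without overlap.

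Among 24 intracellular regulators, 5 were higher and 3 lower (20.8% and 12.5%, beside 9.73% and 13.2% of all genes tested). Smurf2, a ubiquitin ligase that targets SMADs and receptors, was higher in every carcinoma (1.90 to 2.57) than in any normal gland (0.58 to 1.57), and rose by 1.11 ± 0.15 (SE, limma adjusted p = 2.81e-05). Usp9x, a deubiquitinase that acts on SMAD4, rose by 1.10 ± 0.19 (limma adjusted p = 0.000377), and the endosomal adaptor Zfyve16 and the ubiquitin ligase Rnf111 rose by 0.72 and 0.56. The Zfyve16 call ended without normal gland 2, 3 or 4 (limma adjusted p of at most 0.0757), and the Rnf111 call without normal gland 1, 2, 3 or 4 (limma adjusted p of at most 0.119). With normexp the Zfyve16 change was 0.11 (limma adjusted p = 0.618), and with slide as a block Rnf111 did not pass (limma adjusted p = 0.0502). Zeb2, a SMAD-binding repressor, fell by 2.25 (SE 0.40, limma adjusted p = 0.000695). Wwp1 and Fkbp1a, a ubiquitin ligase and an immunophilin that binds type I receptors, fell by 0.84 and 0.75, and the Wwp1 call ended on leaving out any 1 of 12 arrays.

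Among 39 genes known as targets of the pathway, 4 were higher and 7 lower (10.3% and 17.9%, beside 9.73% and 13.2% of all genes tested). Id1, a classical BMP target, lay between 0.08 and 0.54 in normal glands and between -3.79 and -0.83 in carcinomas, and every carcinoma was below every normal gland. The change of Id1 was -2.19 ± 0.36 (SE, limma adjusted p = 0.000275). Id3, a related target above background on 3 normal and 7 carcinoma arrays, fell by 1.81 (SE 0.44, limma adjusted p = 0.00680), while Id4 rose by 2.60 ± 0.56 (limma adjusted p = 0.00270), by 1.25 with normexp and 1.51 with brightness as a covariate. With normexp the Id3 change was -1.18. Msx2, a homeobox target of BMPs, was above background on 1 normal and 11 carcinoma arrays, so it was kept through the carcinomas and the size of its difference is poorly set. Its fitted change was 2.86 ± 0.91 (limma adjusted p = 0.0292). It was 0.65 with normexp and did not pass (limma adjusted p = 0.292), nor did it with slide as a block (limma adjusted p = 0.0501) or without normal gland 2, 3, 4, 5 or 6 (limma adjusted p of at most 0.0636). The cell cycle inhibitors went opposite ways, with Cdkn2b, which TGF-beta induces in epithelium, higher by 2.32 ± 0.47 (limma adjusted p = 0.00175) and Cdkn1a at -1.40 ± 0.29 (limma adjusted p = 0.00240). Cdkn2b was higher by 0.89 with normexp, and Cdkn1a was at -0.15 with brightness as a covariate. Angptl4, which TGF-beta can induce and which fat tissue makes in quantity, fell by 4.29 (SE 0.81, limma adjusted p = 0.00110) beside the 7 lower adipocyte markers, and Bhlhe40 rose by 1.40 (SE 0.40, limma adjusted p = 0.0176). The part of fat cells in the Angptl4 result was not tested.

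No correlation between a ligand or receptor and a partner or target passed over the 13 carcinomas. Besides Acvrl1 with Eng, 3 pairs were examined. Tgfb1 with Tgfbi gave r = 0.29 (permutation p = 0.343) and rho = 0.12 (permutation p = 0.708). Tgfb3 with the collagen gene Col1a1 gave r = -0.12 (permutation p = 0.691) and rho = -0.29 (permutation p = 0.344). Inhba with Fst, the activin-binding follistatin, gave r = 0.09 (permutation p = 0.787) and rho = 0.29 (permutation p = 0.334). Without the 2 carcinomas farthest from the median of the first gene, r was 0.28, -0.35 and -0.27. In the 10 number-coded carcinomas, Tgfb3 with Col1a1 gave r = -0.45 (permutation p = 0.190, adjusted 0.380) and rho = -0.62 (permutation p = 0.0596, adjusted 0.238), and Tgfb1 with Tgfbi gave r = 0.48 (permutation p = 0.158, adjusted 0.380). For all 13 carcinomas with the processing as reported, no p for r adjusted over the 4 pairs was below 0.787 and none for rho below 0.688. Slides held 4 or 5 carcinomas, too few for values within them.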

How the data were processed

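Agilent Feature Extraction 10.7.3.1 made the scanner files, per the submitters' processing notes, and per the file headers the deposited intensity of each spot is background-subtracted and spatially detrended. The authors' deposited table is on the log2 scale. Its scaling was read from the values, which followed the log2 intensities with a constant shift of 0.43 to 0.54 on each array and a correlation of 1.00, with column medians of -3.23 to -2.73.

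From the intensities, control spots and spots marked uneven were dropped, each array's 75th percentile was subtracted on the log2 scale, and repeated spots were averaged by probe. Names were given to probes through RefSeq accessions and a current rat gene table. The array's positions rest on another assembly and were not used. A probe was kept if well above background on at least 6 arrays (at least 0.5 of its spots), and the brightest kept probe stood for its gene. limma 3.58.1 in R 4.3.3 compared the groups over all 12789 genes with an intensity trend, 2-sided, with Benjamini-Hochberg adjustment and a threshold of 0.05; the fit was tested on simulated data. Permutation p-values are 2-sided, from 1e+05 resamples. The number of arrays limits the precision.

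Genes described singly are all called members, a fixed set of central members, the 4 largest calls per direction in each list of other pathway genes (1 of them is not reported here), and the paired genes; Bmp3 and Gdf10 were singled out for their spread after their values were seen. Members and lists were chosen with earlier results of these data known. Alternatives were the background correction, scaling, filter, probe choice, variance prior, slide, scan day, sample code, brightness and leaving out each array. Normexp (offset 50) used median spot signals, since the files hold no mean signals.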

Additional observations from a re-analysis of the deposited data

Results flagged for a closer look

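Dixon's test on the 6 normal glands was run for 61 genes, the tested members and the other pathway genes described singly, and it marks about 1 group in 20 by chance. It marked none of the pathway members and 2 of the other genes. Inha was -3.00 in normal gland 6, while the next gland was at -4.11 and the lowest at -4.64. Nrros was 1.15 in normal gland 5, while the next gland was at 0.35 and the lowest at 0.06.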

How the results depend on the processing

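Beside the reported 7 higher and 7 lower members and 11 higher and 17 lower other pathway genes, leaving out 1 array gave 4 to 9, 6 to 8, 6 to 17 and 13 to 18. Over all genes tested, leaving out 1 array gave 664 to 1440 higher and 1087 to 1830 lower, against 1244 and 1692. Normexp gave 20 lower members and 32 lower other genes, and probes above background on all arrays gave 4 lower members and 7 higher other genes. With array brightness as a covariate in limma, 0 members were higher and 1 lower, and 0 other genes passed in either direction (7 members, and 1843 of 12789 genes, had an unadjusted p below 0.05). Within slides 1, 2 and 3, members were higher for 1, 0 and 0 and lower for 2, 2 and 0, and other genes were higher for 6, 0 and 0 and lower for 6, 2 and 0. The other scalings, filters, probe rules and blocks, and the authors' deposited table, kept these counts within 1.5 times. The labels do not say whether the replicate numbers pair the samples. Correlations of same-numbered samples, after centring each group, ran from -0.115 to 0.238 and cannot settle it, since paired samples need not deviate together. Only normal gland 1 was closest to the carcinoma of its own number. A replicate block over the 6 shared numbers gave 5 higher and 7 lower members (17.9% of all genes called). The same 12 arrays without the block gave 6 and 8 (20.2%), a comparison added after seeing the data. Normexp reversed Acvr1 (-0.36), Acvr1b (-0.49), Acvr2a (-0.60), Smad2 (-0.11) and Smad9 (-0.75), in a fit where the median change of all genes was -0.37. Brightness as a covariate reversed Bmp7 (-0.34), Bmpr1b (-1.18), Inhbb (-0.11), Smad1 (-0.40), Smad4 (0.15), Tgfb1 (0.46), Tgfb2 (0.37) and Tgfbr1 (0.02). Slide 1 reversed Smad9 (-0.11), Tgfb1 (0.14) and Tgfb3 (-0.14), slide 2 Smad1 (-0.21), Smad4 (0.11), Tgfb2 (0.20) and Tgfb3 (-0.11), and slide 3 Bmp2 (0.81), Rnf111 (-0.37), Smad2 (-0.27), Smad5 (0.14), Smad9 (-1.84), Tgfb1 (0.75), Tgfbi (0.66) and Tgfbr1 (0.03). Quantile scaling turned Smad5 (0.05) and Tgfbr1 (0.00), the authors' table Tgfbr1 (0.00), number-coded samples Smad4 (0.02) and Tgfb3 (-0.13), a slide block Tgfb1 (0.07), and the shared numbers, with and without the block, Tgfb1 (0.19) and Tgfb2 (0.14). Leaving out 1 array spread uncalled Smad5 from -0.09 to 0.06, Smad9 from -0.21 to 0.29, Tgfb1 from -0.35 to 0.08, Tgfb3 from -0.13 to 0.33 and Tgfbr1 from -0.19 to 0.09. The correlation of Acvrl1 with Eng was -0.01 in number-coded carcinomas, and that of Inhba with Fst -0.27 without the 2 extremes. The causes were not tested. Acvr2a was well above background on 1 and Acvr1b on 2 of the 6 normal arrays.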
